A study of Homo sapiens with 6 samples.

Results

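The genes described here are 31 genes of the NRF2 pathway and of antioxidant defence, chosen by gene symbol from a list of names. Earlier results of these data were known when the list was made, so its counts beside all genes are descriptions only. Of these, 30 were measured among 17687 genes in all, and FTH1, the ferritin heavy chain, was not analysed here. The line studied, NCI-H2023, is an established human line from a lung adenocarcinoma, and its RNA was put on arrays in 3 groups of 2 samples lettered A and B. Each group received a small RNA by reverse transfection at 0.5 nM, and medium was changed at 24 h: a control, which the titles call a mimic control and the protocol a negative control siRNA, a miR-223-3p mimic or a miR-29a-3p mimic. A mimic is a synthetic duplex that acts as the named microRNA. All samples share the cell line and the lipid transfection, no untransfected cells were analysed here, and all results rest on this 1 line. The labels do not give the time of harvest. The series' design text speaks of experimental replicates without saying that they were separate cultures, so a p-value here measures the spread between samples A and B only, and that spread may be technical.

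NRF2, the product of NFE2L2, is a transcription factor that is made continuously and degraded just as steadily. KEAP1 holds it and presents it to a CUL3 ubiquitin ligase. Oxidants and electrophiles modify KEAP1, and NRF2 then enters the nucleus, pairs with a small MAF protein and binds antioxidant response elements. Its targets make glutathione and NADPH, regenerate thioredoxin, remove quinones and carbonyls and store iron. In lung adenocarcinoma the pathway is often locked on by loss of KEAP1.

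The mature sequences of the microRNAs are shown because they are what distinguishes the treated groups. They come from RefSeq (GRCh38.p14), 5′ to 3′, with the seed (bases 2 to 8) in capitals. MIR223 gives its mature strand from chromosome X, 66018937 to 66018958 (plus strand), and MIR29A from chromosome 7, 130876748 to 130876769 (minus strand). Their seeds differ, so the microRNAs do not belong to one seed family.
miR-223-3p: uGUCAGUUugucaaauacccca
miR-29a-3p: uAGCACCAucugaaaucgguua

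Promoter stretches are shown for 4 of the 5 genes that passed a test in any comparison below. Promoters of ALDH3A1, the fifth, and of HMOX1, AKR1B10, GSR, PRDX1 and FTH1 were not analysed here. The sequences come from the RefSeq promoter table (GRCh38.p14), which runs from 250 bases before to 50 after a gene's start. Capitals mark a match to TGACNNNGC, the core of the antioxidant response element, or in OSGIN1 to TGANTCA, the AP-1 motif. OSGIN1 had no TGACNNNGC match in this window, and of the 3 EPHX1 starts only the 1 shown had such a match. The GCLM stretch is chr1:93909436-93909484 (minus strand), that of ME1 chr6:83431160-83431208 (minus strand), that of EPHX1 chr1:225825256-225825304 (plus strand, 1 of its 3 listed starts), and that of OSGIN1 chr16:83953123-83953169 (plus strand).
GCLM: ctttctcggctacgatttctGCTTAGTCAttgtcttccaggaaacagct
ME1: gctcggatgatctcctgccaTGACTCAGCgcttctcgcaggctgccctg
EPHX1: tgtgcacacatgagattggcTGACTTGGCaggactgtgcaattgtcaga
OSGIN1: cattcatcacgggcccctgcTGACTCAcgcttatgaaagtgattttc

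The GCLM match starts 34 bases before the gene's start and lies on the other strand, where it reads TGACTAAGC. In ME1 the match starts 137 bases before the start, and a TGANTCA match begins at the same base. In OSGIN1 the TGANTCA match starts 97 bases before the start and overlaps a match to the looser form TGANNNNGC, which starts 99 bases before it on the other strand. Both strands were searched. TGACNNNGC was in 10 of 34 promoters of 25 of the genes (29.4%) and in 13.3% of 35116 promoters in the table. TGANNNNGC was in 19 of the 34 (55.9%) against 41.8%, and TGANTCA in 2 (5.88%) against 7.71%. The matches are a description of letters and do not show binding, and many known elements of these genes lie farther upstream than this window.

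The arrays had medians of 6.54 to 6.58 over all genes on the log2 scale. The 8 epithelial markers had means from 3.37 (CLDN4) to 17.36 (KRT8), and the keratins KRT7, KRT8 and KRT18 were all above 16. The 8 lung lineage markers ran only from 3.16 to 7.62, FOXA1 highest, so the surfactant and NKX2-1 markers of lung alveolar cells were near the bottom of the range. Medians of the 9 leukocyte, 7 fibroblast and 7 endothelial markers measured were 4.65, 4.15 and 4.39. The highest of these, CD68, measured 10.53 and was called higher with miR-29a-3p than in control (0.665, adjusted p 0.0489 with the intensity trend explained below). That trend called 1.03% of all genes in this comparison. With miR-223-3p 7 of the 8 epithelial markers were above control, beside 49.9% of all genes. With that trend 2 were called, EPCAM (1.14) and KRT19 (0.82), beside 0.684% of all genes. Among the 7, KRT8 (0.005), CDH1 (0.03), KRT7 (0.085) and MUC1 (0.105) differed little from control. Between the mimics 5 of the 8 were lower with miR-29a-3p, beside 50.1% of all genes. EPCAM (-0.99, adjusted p 0.00204) and CDH1 (-0.87, adjusted p 0.0360) were called with the trend, as was CD68, which was higher (0.745, adjusted p 0.0140). The trend called 1.94% of all genes between the mimics. None of these marker calls was made with the constant prior, also explained below, where the smallest adjusted p among them was 0.119 (EPCAM between the mimics). The part of these markers in the results below was not tested. In bulk samples fewer cells of a type and less RNA per cell cannot be told apart.

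Each comparison was tested with limma in 2 ways. In the fit with a constant prior, the gene's own spread is drawn toward a single value for all genes. In the fit with an intensity trend, it is drawn toward the spread of genes of like signal. Bright genes spread less than dim ones here: the median residual SD was 0.242 under a signal of 8 and 0.0812 at 16 and above. Most of the NRF2 genes are bright, so the choice matters for them, and the median of their standard errors was 0.178 under the constant prior, against 0.107 under the trend. Adjusted p-values run over all 17687 genes, and a call is an adjusted p under 0.05.

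The first comparison set the miR-223-3p mimic against control. Signals of the NRF2 genes lay a little below control: 27 of 30 had a lower mean and 3 a higher, with a median log2 difference of -0.15 against 0 over all genes. Differences ran from -0.56 for OSGIN1 to 0.62 for HMOX1. EPHX1, the microsomal epoxide hydrolase, was the 1 gene called with the intensity trend, 1.41-fold lower. With the constant prior no member was called, and the smallest adjusted p was 0.561. Of all genes, 0% were called under the constant prior and 0.684% under the trend. From 14 to 16 in signal, the range of EPHX1, the trend called 9 of 388 genes and 1 of 12 NRF2 genes lower. An unadjusted p under 0.05 was found for 5 of the 30 genes (16.7%), and for 1343 of all genes (7.59%), with the constant prior.

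Both miR-223-3p samples lay below both controls for 17 of the 30 genes, where this held for 18.2% of all genes. The share was larger among bright genes. At a signal of 16 and above it was 35.7% of all genes and 4 of 8 NRF2 genes. From 14 to 16 it was 23.7% and 6 of 12, from 12 to 14 23.5% and 3 of 3. From 8 to 12 it was 19.6% and 3 of 5. For HMOX1 alone both miR-223-3p samples lay above both controls, where this held for 18.7% of all genes. The lower side was not equally filled by the samples. In sample A, 22 of the 30 genes were under the control mean, with a median of -0.07, and in sample B 29 were, with a median of -0.22. Within miR-223-3p, 26 of the 30 were lower in sample B than in A, with a median of -0.155. In control 13 were lower in B than in A, and in miR-29a-3p 15. Without sample B the median was -0.07 and 22 were lower, and without sample A it was -0.22 and 29 were lower.

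Signal level moves with this count. Among all genes with a mean signal of 16 and above, 79.8% of 84 were lower with miR-223-3p, with a median of -0.07, and so were all 8 NRF2 genes in that range, with a median of -0.10. The miR-223-3p samples differed in this: over all genes at 14 and above, the median against the control mean was 0.01 in A and -0.075 in B. From 14 to 16, 55.4% of 388 genes were lower, with a median of -0.03, and 11 of 12 NRF2 genes, with a median of -0.15. From 8 to 14 no such lean was seen in all genes (47.8% of 5168 genes from 8 to 12, and 51.1% of 1185 from 12 to 14), while 4 of 5 and 3 of 3 NRF2 genes were lower. The 2 members under 8, MAFG and HMOX1, lay on opposite sides. After a further quantile normalization, which aligns the bright ends of the arrays, 20 were lower and 10 higher, the median was -0.11, and 14 lay below both controls. The 7 genes that changed side were NQO1, AKR1C2, GSR, TXNRD1, TXN, PRDX1 and FTL, none of which differed by more than 0.11 as deposited.

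With the miR-29a-3p mimic the NRF2 genes lay on both sides of control, 16 higher, 13 lower and 1 equal, with a median of 0.01 against 0 over all genes. No member was called in either fit, where 0.0113% and 1.03% of all genes were, with the constant prior and the trend. An unadjusted p under 0.05 was found for 2 of the 30 (6.67%) and for 1567 of all genes (8.86%) with the constant prior. The widest differences were 1.01 for HMOX1, 0.47 for GCLM and 0.35 for OSGIN1, above control, and -0.40 for the transketolase TKT and -0.30 for EPHX1, below. Both samples lay above both controls for 9 of the 30 genes, against 19% of all genes, and below for 6, against 18.8%.

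The difference between the mimics was tested directly. In miR-29a-3p samples 26 of the 30 genes had a higher mean than in miR-223-3p samples and 4 (KEAP1, TXN, PGD and TKT) a lower, with a median of 0.19 against -0.01 over all genes. Called with the intensity trend were 4 genes, all higher with miR-29a-3p: GCLM (1.87-fold), OSGIN1 (1.87-fold), ALDH3A1 (1.54-fold) and ME1 (1.37-fold). With the constant prior none was called, the lowest adjusted p being 0.104, and 5 of the 30 (16.7%) had an unadjusted p under 0.05, as had 1819 of all genes (10.3%). Of all genes, 0.221% were called with the constant prior and 1.94% with the trend. The trend's calls were more frequent above a signal of 8. From 8 to 12 it called 106 of 5168 genes and 2 of 5 NRF2 genes higher with miR-29a-3p. From 12 to 14 these were 36 of 1185 and 1 of 3. The counts from 14 to 16 were 16 of 388 and 1 of 12. Under 8 it called 22 of 10862 genes higher, and at 16 and above 2 of 84. Both miR-29a-3p samples lay above both miR-223-3p samples for 16 of the 30, against 19.2% of all genes, and below for TKT alone, against 19.5%. At a signal of 16 and above they lay above for 25% of all genes and 4 of 8 NRF2 genes. From 14 to 16 it was 28.1% and 7 of 12, from 12 to 14 26.2% and 2 of 3. From 8 to 12 it was 22.5% and 2 of 5.

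After a further quantile normalization 23 were higher and 7 lower between the mimics, with a median of 0.13. Without sample B of miR-223-3p, 21 were higher and 8 lower, with a median of 0.11, and without its sample A, 29 were higher and 1 lower. At a signal of 16 and above, 60.7% of all genes were higher with miR-29a-3p, as were 7 of 8 NRF2 genes. From 14 to 16 it was 58.0% of all genes and 10 of 12 NRF2 genes. The 3 comparisons share samples with each other, so their counts are not independent of one another.

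**Figure D1:**
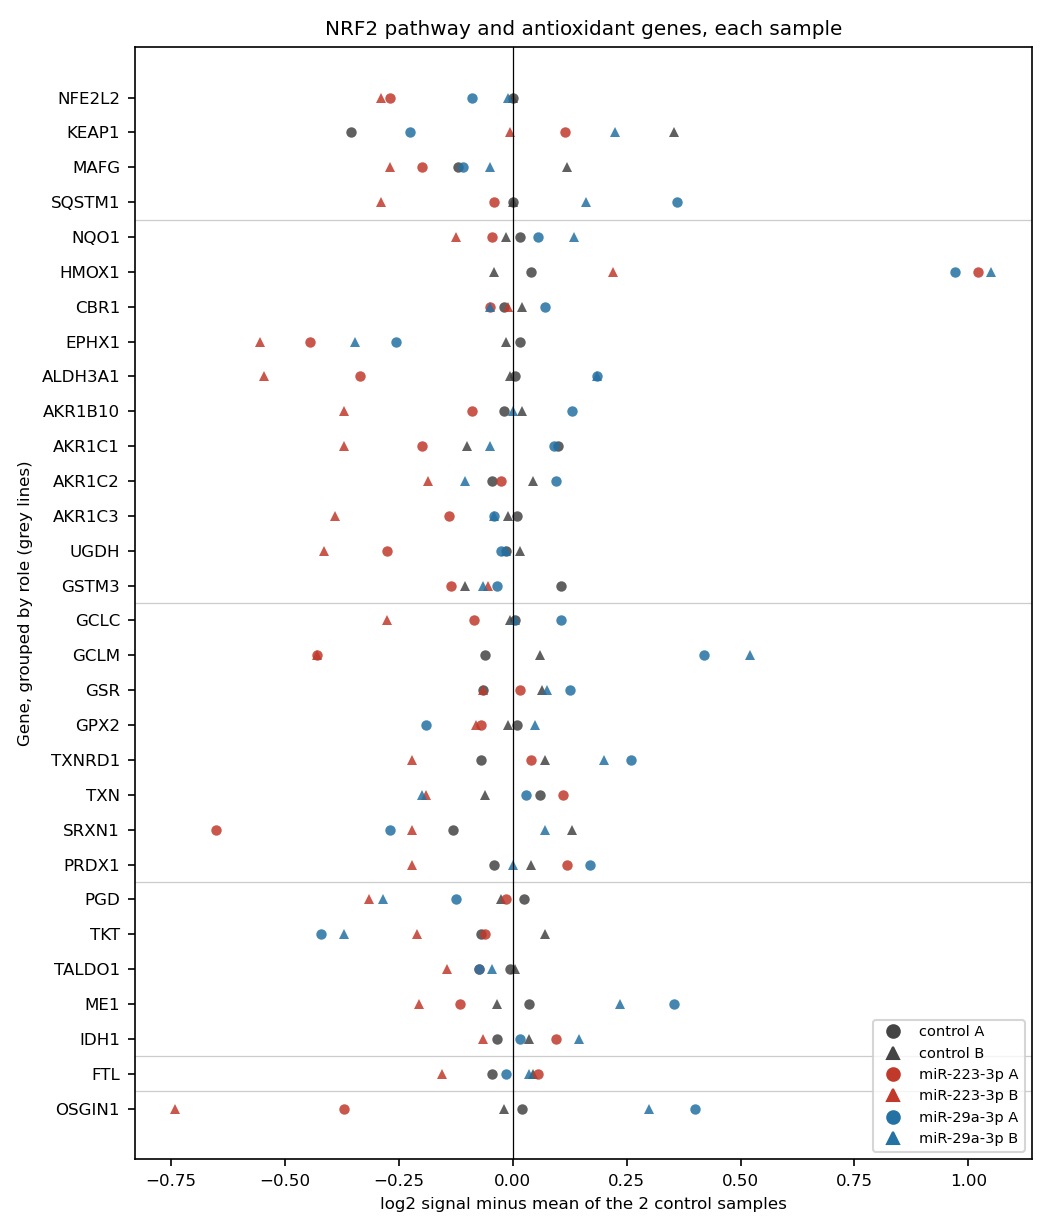
Log2 signal of each of the 30 genes in each of the 6 samples, less the mean of the 2 control samples (x axis), with genes in rows by role; circles are sample A and triangles sample B. The miR-223-3p samples lie mostly left of 0, sample B farther than sample A, and HMOX1 is the gene farthest to the right.

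**Figure D2:**
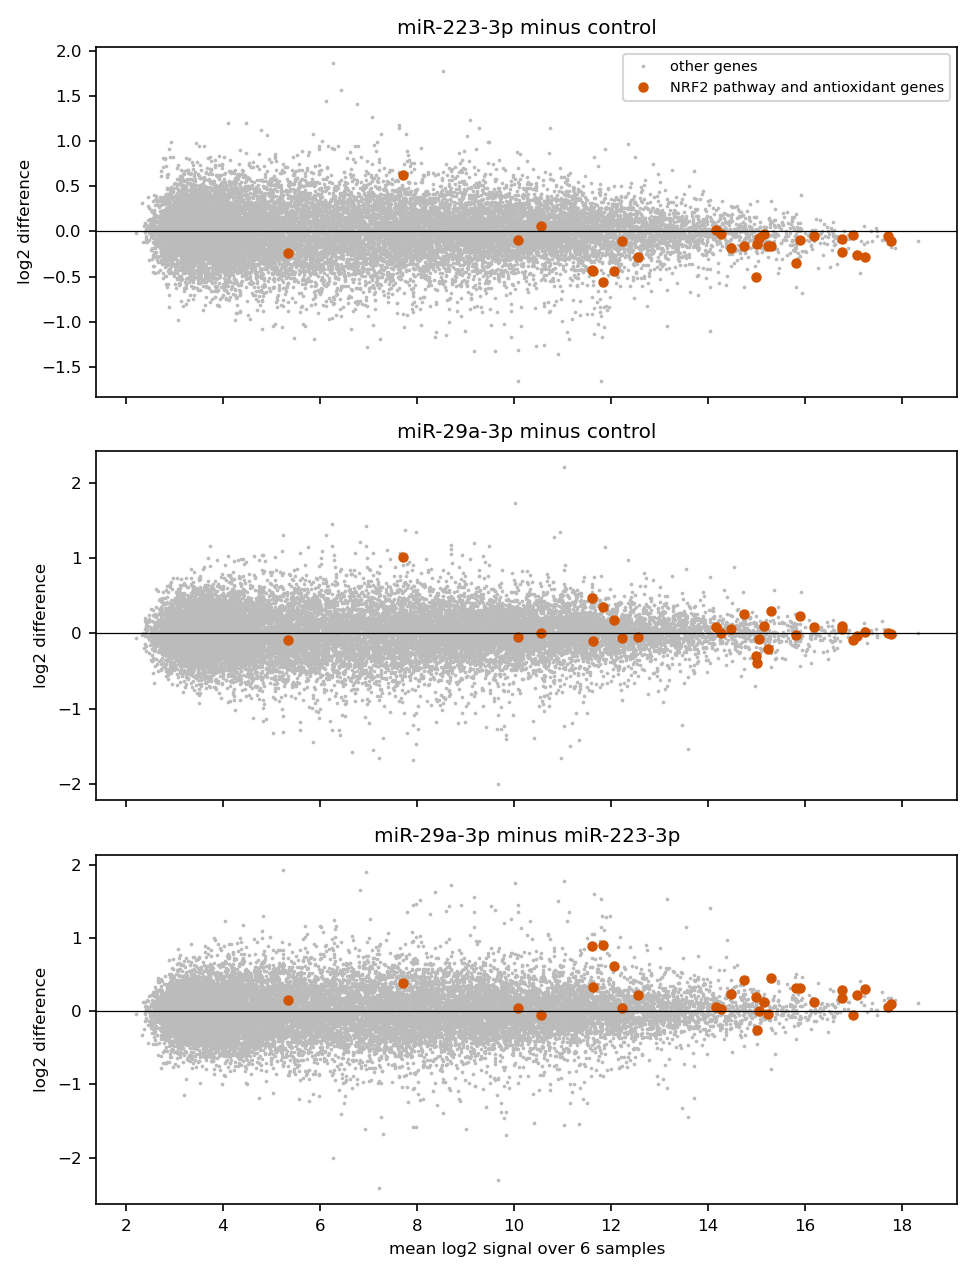
Log2 difference (y axis) against the mean log2 signal over 6 samples (x axis) for all 17687 genes, 1 panel a comparison, with the 30 NRF2 and antioxidant genes in orange. At a signal of 16 and above most genes lie under 0 in the miR-223-3p panel, where 79.8% of 84 genes were lower.

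Among the regulators, NFE2L2 itself (gene ID 4780, chromosome 2, 177230303 to 177264727) measured 12.67 in both controls, 12.40 and 12.38 with miR-223-3p, and 12.58 and 12.66 with miR-29a-3p. Both miR-223-3p values were the lowest, and no groups overlapped. Its log2 difference from control was -0.28 with miR-223-3p (95% interval -0.67 to 0.11, constant prior) and -0.05 with miR-29a-3p, with adjusted p of 0.535 and 0.945 with the trend. KEAP1, its inhibitor (chromosome 19, 10486125 to 10503356), measured 10.19 and 10.90 in control, 10.66 and 10.54 with miR-223-3p, and 10.32 and 10.77 with miR-29a-3p. The controls bracketed every other sample. Its difference with miR-223-3p was 0.055, and the 95% interval from -0.55 to 0.66 was wide in both directions.

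SQSTM1, or p62, an autophagy receptor that binds KEAP1 and is also an NRF2 target, measured 14.71 in both controls. It stood at 14.67 and 14.42 with miR-223-3p and at 15.07 and 14.87 with miR-29a-3p. The mimics lay on opposite sides of control, but sample A of miR-223-3p only by 0.04. Between the mimics SQSTM1 differed by 0.425, and its adjusted p was 0.0597 under the trend and 0.482 under the constant prior. The small MAF partner MAFG was dim and had group means of 5.46 in control, 5.23 with miR-223-3p and 5.38 with miR-29a-3p.

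Of the glutathione and thioredoxin genes, all 8 were lower with miR-223-3p as deposited, and 5 were higher and 3 lower with miR-29a-3p. After the further quantile normalization GSR, TXNRD1, TXN and PRDX1 lay above control with miR-223-3p. GCLM, the modifier subunit of glutamate-cysteine ligase, which makes the first step of glutathione synthesis, differed most. GCLM (gene ID 2730, chromosome 1, 93885199 to 93909430) measured 11.53 and 11.65 in control, 11.16 in both miR-223-3p samples, and 12.01 and 12.11 with miR-29a-3p. The 3 groups did not overlap, and control lay in the middle.

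GCLM differed between the mimics by 0.90 (SE 0.173 with the constant prior and 0.140 with the trend). Its adjusted p was 0.000997 with the trend, 0.104 with the constant prior, and 0.0437 with the constant prior once genes with a mean under 5 were left out. Against control it differed by -0.43 with miR-223-3p and 0.47 with miR-29a-3p, with adjusted p of 0.278 and 0.144 with the trend. Means of its partner GCLC, the catalytic subunit, were 14.53 in control, 14.35 with miR-223-3p and 14.58 with miR-29a-3p. The adjusted p of GCLC between the mimics was 0.409 with the trend.

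SRXN1, sulfiredoxin, which repairs overoxidised peroxiredoxins, measured 11.68 and 11.94 in control, 11.16 and 11.59 with miR-223-3p, and 11.54 and 11.88 with miR-29a-3p. Both miR-223-3p samples were below both controls, but they differed from each other about as much as the groups did. The difference was -0.435, with an adjusted p of 0.415 (trend), and it was -0.22 without sample A of miR-223-3p. TXNRD1, the cytosolic thioredoxin reductase, measured 15.79 and 15.93 in control, 15.90 and 15.64 with miR-223-3p, and 16.12 and 16.06 with miR-29a-3p. Both miR-29a-3p samples were above all others, by a mean of 0.23 over control (adjusted p 0.451, trend). The other members of this role (GSR, GPX2, TXN and PRDX1, which are glutathione reductase, a gut-type glutathione peroxidase, thioredoxin and a peroxiredoxin) differed between groups by at most 0.135 in any comparison.

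Among the detoxification genes 10 of 11 were lower with miR-223-3p as deposited, and of these NQO1 and AKR1C2 changed side after the further quantile normalization. With miR-29a-3p 6 were higher and 5 lower as deposited. There CBR1, AKR1C1 and UGDH changed side after the further quantile normalization, and AKR1C2 after centring each array on its median. Between the mimics all 11 had their higher mean under miR-29a-3p as deposited, but AKR1C2 turned to -0.07 after the further quantile normalization. EPHX1 (gene ID 2052, chromosome 1, 225810124 to 225845563) measured 15.27 and 15.24 in control, 14.81 and 14.70 with miR-223-3p, and 15.00 and 14.91 with miR-29a-3p. Both mimics lay below control without overlap. With miR-223-3p it fell by 0.50 on the log2 scale (SE 0.10, adjusted p 0.0202 with the trend; SE 0.172 and 0.561 with the constant prior). That call was lost when any 1 of the 4 samples was left out, with adjusted p from 0.0558 to 0.226. The miR-29a-3p difference was -0.30, with an adjusted p of 0.225 (trend).

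ALDH3A1, an aldehyde dehydrogenase, measured 12.15 and 12.14 in control, 11.81 and 11.60 with miR-223-3p, and 12.33 in both miR-29a-3p samples. Control lay between the mimics and nothing overlapped. Between the mimics it was 0.625 higher with miR-29a-3p (SE 0.135, adjusted p 0.0163, trend; 0.257 with the constant prior). Without sample B of miR-223-3p, or without A or B of miR-29a-3p, the adjusted p was 0.220, 0.102 and 0.104 with the trend.

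HMOX1, heme oxygenase, which breaks heme down to biliverdin, iron and carbon monoxide, lay above control with both mimics. It measured 7.21 and 7.13 in control, 8.19 and 7.39 with miR-223-3p, and 8.14 and 8.22 with miR-29a-3p. All 4 mimic samples were above both controls, but sample B of miR-223-3p by little. With miR-29a-3p the mean was 2.01-fold that of control (log2 1.01, SE 0.258 with the constant prior and 0.260 with the trend, adjusted p 0.295 and 0.0724). With miR-223-3p it was 1.54-fold (log2 0.62), with an SD of 0.566 between its samples and an adjusted p of 0.491 (trend), and the log2 difference was 0.22 without sample A and 1.02 without sample B. Neither passed the test.

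The aldo-keto reductases AKR1B10, AKR1C1, AKR1C2 and AKR1C3 reduce carbonyls, retinal or steroids and are among the strongest NRF2 targets of lung cells. AKR1C1 measured 17.43 and 17.23 in control, 17.13 and 16.96 with miR-223-3p, and 17.42 and 17.28 with miR-29a-3p. It lay below control with miR-223-3p in both samples, by 0.29 (adjusted p 0.278, trend), and differed by 0.02 with miR-29a-3p. The first of these differences was -0.16 after the further quantile normalization and -0.185 without control sample A. Means of AKR1B10 were 16.83 in control and 16.60 and 16.90 under the mimics of miR-223-3p and miR-29a-3p. Those of AKR1C3 were 17.17, 16.91 and 17.13 in the same order, and those of AKR1C2 17.82, 17.71 and 17.81. AKR1C1, AKR1C2 and AKR1C3 are neighbours on chromosome 10 (4963415 to 5107686) and close copies, so their probes may share signal.

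UGDH, which makes UDP-glucuronic acid for conjugation, measured 15.93 and 15.96 in control, 15.67 and 15.53 with miR-223-3p, and 15.92 and 15.93 with miR-29a-3p. Only the miR-223-3p samples stood apart, by -0.35 from control, with an adjusted p of 0.138 (trend), and by 0.33 between the mimics, with one of 0.0918. NQO1, the quinone reductase often read as the pathway's marker, had means of 16.76 in control, 16.67 with miR-223-3p and 16.85 with miR-29a-3p. Its samples did not overlap between any groups, yet the widest difference, between the mimics, was 0.18 with an adjusted p of 0.428 (trend). The carbonyl reductase CBR1 and the glutathione transferase GSTM3 differed by at most 0.10.

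**Figure D3:**
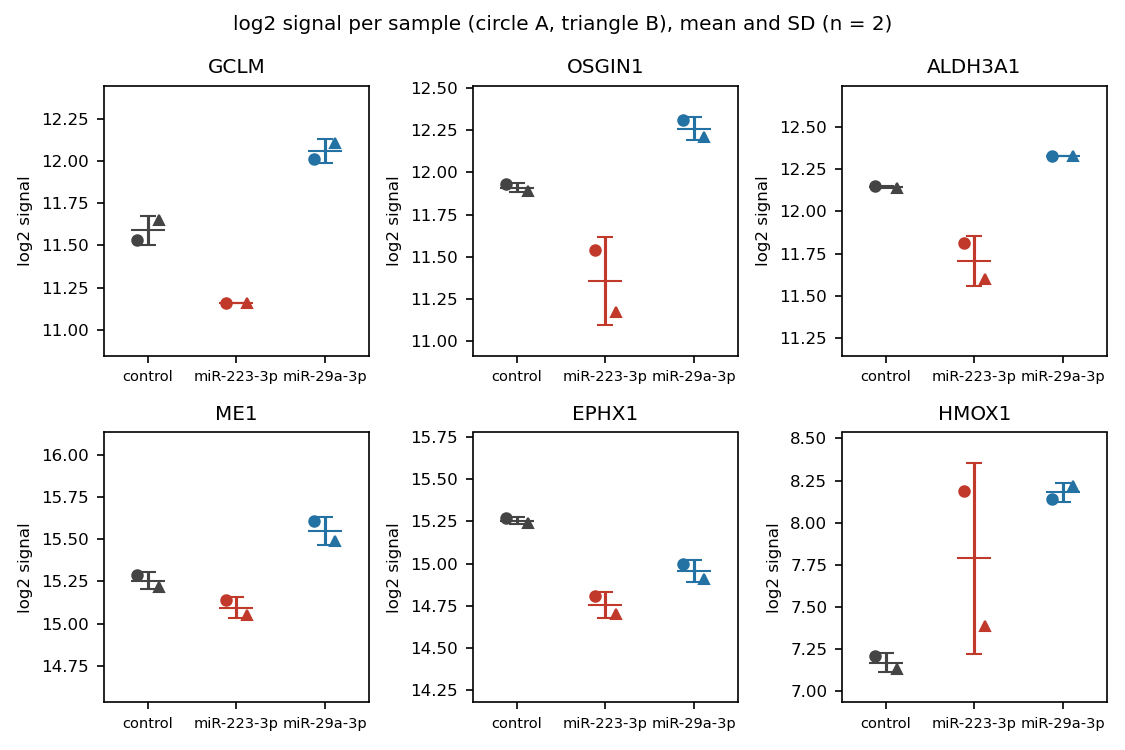
Log2 signal of GCLM, OSGIN1, ALDH3A1, ME1, EPHX1 and HMOX1 in each sample (circle A, triangle B), with the group mean and SD (n = 2); each y axis spans the same range. Control lies between the mimics for GCLM, OSGIN1, ALDH3A1 and ME1, above both for EPHX1 and below both for HMOX1.

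Of the NADPH genes, ME1, the cytosolic malic enzyme, measured 15.29 and 15.22 in control, 15.14 and 15.05 with miR-223-3p, and 15.61 and 15.49 with miR-29a-3p. No groups overlapped, and control was again in the middle. Between the mimics it was 0.455 higher with miR-29a-3p (SE 0.0982, adjusted p 0.0163, trend; 0.410 with the constant prior). That call was lost without sample B of miR-223-3p (adjusted p 0.161) and without sample A or B of miR-29a-3p (0.188 and 0.0608). Against control its difference was -0.16 with miR-223-3p and 0.30 with miR-29a-3p, and neither passed.

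TKT, the transketolase of the pentose phosphate pathway, was lowest with miR-29a-3p. It measured 15.12 and 15.26 in control, 15.13 and 14.98 with miR-223-3p, and 14.77 and 14.82 with miR-29a-3p. The miR-29a-3p samples were the lowest, by -0.40 from control, with an adjusted p of 0.0776 with the trend and 0.575 with the constant prior. PGD, which yields NADPH in the same pathway, had a mean of 15.37 in control, 15.20 with miR-223-3p and 15.16 with miR-29a-3p. The transaldolase TALDO1 and the isocitrate dehydrogenase IDH1 differed by at most 0.11.

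OSGIN1, an oxidative stress-induced growth inhibitor (gene ID 29948, chromosome 16), measured 11.93 and 11.89 in control, 11.54 and 11.17 with miR-223-3p, and 12.31 and 12.21 with miR-29a-3p. The groups did not overlap, and the miR-223-3p samples differed from each other by 0.37. Between the mimics it was 0.905 higher with miR-29a-3p (SE 0.148, adjusted p 0.00162, trend; SE 0.193 and 0.141 with the constant prior). Against control it differed by -0.56 with miR-223-3p (-0.37 without its sample B) and 0.35 with miR-29a-3p, with adjusted p of 0.134 and 0.410 (trend). GCLM and OSGIN1 stayed called with the trend without any 1 of the 4 samples, with adjusted p up to 0.0263 and 0.0489. The ferritin light chain FTL, whose probes may also pick up its processed copies, had a mean of 17.74 in control, 17.69 with miR-223-3p and 17.75 with miR-29a-3p.

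Further genes of the pathway were taken from 5 lists of its known parts. For scale, 49.3% of all genes were lower with miR-223-3p and 49.5% with miR-29a-3p. The trend called 0.684% and 1.03% of all genes in these comparisons, and 1.94% between the mimics. Of 22 measured of 30 other genes that NRF2 is known to induce, 11 were lower and 11 higher with miR-223-3p, with a median of 0.01, and 11 and 11 with miR-29a-3p, with a median of 0. With the trend, 1 was called lower with miR-223-3p, ABCC2, the canalicular export pump for conjugates (-0.59, adjusted p 0.018, but 0.536 with the constant prior). Called with miR-29a-3p, also with the trend, were SLC7A11 and GSTA4. SLC7A11, the cystine importer that feeds glutathione synthesis, was higher by 0.875 (adjusted p 0.000221 with the trend and 0.187 with the constant prior). GSTA4, a glutathione transferase for lipid aldehydes, was lower (-1.085, adjusted p 0.0112 with the trend and 0.211 with the constant prior). Between the mimics the trend called 2 higher with miR-29a-3p, ABCC2 and SLC7A11, and 2 lower, GSTA4 and HTATIP2, beside 1.94% of all genes. With the constant prior none of the 22 was called in any comparison. HTATIP2, named after its values were seen, differed by -0.52. ABCB6, a porphyrin transporter, had a mean of 7.55 in control, 7.57 with miR-223-3p and 6.75 with miR-29a-3p and was not called.

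Of 20 NRF2 control genes 17 were measured and none was called in any comparison with the trend, with 9 lower and 8 higher with miR-223-3p and 7 lower and 10 higher with miR-29a-3p. RBX1, the RING subunit of the CUL3 ligase, was 0.645 above control with miR-223-3p (adjusted p 0.0597, trend) and 0.385 above with miR-29a-3p (0.354). Of 29 antioxidant enzymes outside the set 27 were measured. With each mimic 16 of them (59.3%) were lower, beside 49.3% of all genes with miR-223-3p and 49.5% with miR-29a-3p. GLRX, glutaredoxin, was the 1 called with the trend. It was lower with miR-223-3p (-0.57, adjusted p 0.0428) and with miR-29a-3p (-0.805, adjusted p 0.00245). With the constant prior its adjusted p was 0.532 and 0.224. MSRA, a methionine sulfoxide reductase, and CAT, catalase, differed with miR-29a-3p by 0.76 and -0.605, neither past the test. PRDX4, a peroxiredoxin of the secretory pathway, differed by -0.495 with miR-223-3p (adjusted p 0.157). None of 11 measured genes of the pentose phosphate pathway and NADPH supply was called. PGLS, the lactonase of that pathway, differed most, by -0.61 with miR-29a-3p (adjusted p 0.544, trend). Its groups overlapped, with 8.87 and 9.55 in control and 7.94 and 9.26 with miR-29a-3p. MTHFD2, a mitochondrial folate enzyme, differed by 0.41 with miR-29a-3p (adjusted p 0.0929, trend).

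Of 9 measured genes of iron handling, 7 were lower with miR-223-3p, with a median of -0.135, and 5 with miR-29a-3p, with a median of -0.045. Of all genes 49.3% and 49.5% were lower in these comparisons. SLC39A14, a zinc and iron importer, was called lower with miR-223-3p (-1.355, adjusted p 0.00023 with the trend, but 0.152 with the constant prior). It was also called higher in the miR-29a-3p samples than in those of miR-223-3p (1.515, adjusted p 1.59e-05 with the trend and 0.0321 with the constant prior). SLC11A2, the divalent metal transporter, had a mean of 8.02 in control, 7.55 with miR-223-3p and 8.21 with miR-29a-3p, and the iron exporter SLC40A1 12.40, 12.89 and 12.58 in that order. Neither was called.

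**Figure D4:**
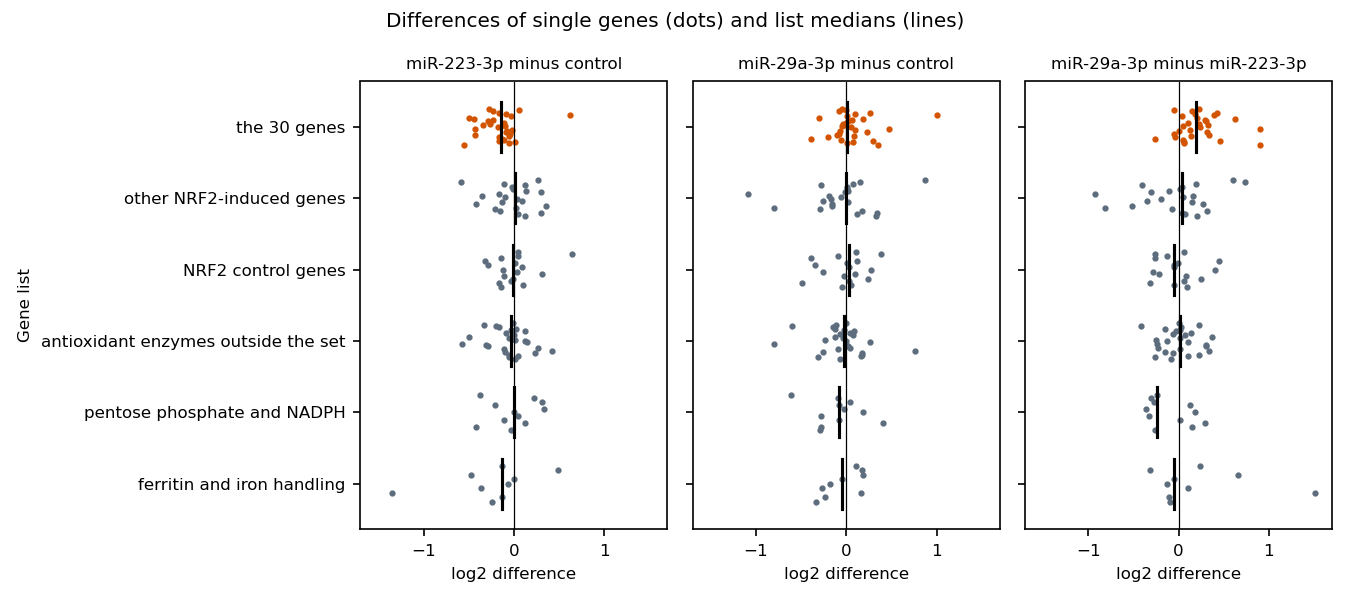
Log2 differences of single genes (dots) and list medians (black lines) for the 30 genes and the 5 further lists, 1 panel a comparison. The median of the 30 genes lies at -0.15 with miR-223-3p and at 0.19 between the mimics, while that of the other NRF2-induced genes lies at 0.01 and 0.04.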

How the data were processed

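The values are log2 signals, 1 per probe set and array, which the authors deposited and, per the submitters' processing notes, made with RMA, with the version not given there and the build named as hg38. RMA makes arrays' distributions alike, so a change in total messenger RNA cannot be seen. Of 21448 probe sets, 17709 carry 1 gene in the platform annotation; symbols and coordinates come from RefSeq (GRCh38.p14). The probe set with the highest mean was kept per gene, which left out 22 and gave 17687 genes. No dim genes were removed.

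All 6 samples entered 1 fit of the 3 groups in limma 3.58.1 (R 4.3.3) with 3 residual degrees of freedom and Benjamini-Hochberg adjustment over all genes. The constant prior is the primary test and the intensity trend its alternative. The procedure was tested on simulated data. Sample values were given for genes called in either fit, the 12 with the widest range of group means (0.305 or more), NFE2L2 and KEAP1. Of each further list, up to 4 genes with the widest range were named. The members and lists were chosen with earlier results of these data known. Alternatives were a robust prior, array weights, only the groups compared, a further quantile normalization, median centring, leaving out genes with a mean under 5, all probe sets, the replicate letter as a block and leaving out each sample. The number of arrays limits the precision.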

Additional observations from a re-analysis of the deposited data

Results flagged for a closer look

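For 6 of the 30 genes both samples of one mimic lay above both controls and both samples of the other lay below them, always with miR-29a-3p above. The share of all genes with this pattern was not counted. In the single comparisons 18.2% of all genes lay below both controls with miR-223-3p, and 19% above them with miR-29a-3p. These comparisons share the controls, so their shares do not give that of the joint pattern. The count of 6 therefore stands without a background. The log2 difference between the mimics was 0.905 for OSGIN1, 0.90 for GCLM, 0.625 for ALDH3A1, 0.455 for ME1, 0.425 for SQSTM1 and 0.18 for NQO1. In the direct comparison of the mimics the first 4 of these passed limma with the intensity trend (adjusted p 0.00162, 0.000997, 0.0163 and 0.0163) and none with the constant prior. SQSTM1 (0.0597) and NQO1 (0.428) did not pass. All 6 were picked because the mimics lay apart on these same arrays, so these p-values are not separate support for them. NQO1 lay 0.05 above control with miR-223-3p after a further quantile normalization.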

How the results depend on the processing

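Under the constant prior none of the 30 genes was called in any comparison, except that leaving out dim genes called 1 of them between the mimics. With the intensity trend 1 of the 30 was called with miR-223-3p against control and 4 between the mimics. The further alternatives on the trend, and the counts of lower means, were chosen after seeing the data. With miR-223-3p the trend's count was 0 without any 1 of the 4 samples (range 0 to 0). With miR-29a-3p it was 0, but 1 with only the groups compared and 2 with dim genes left out. Between the mimics it ran from 2 to 6 without 1 sample. In the replicate block, with the letter as a factor, the trend called 2 genes with miR-29a-3p and 7 between the mimics. The share of all genes called under these alternatives is not given here. These counts therefore show how the calls depend on the setting and cannot be set against a background. The letters share only a letter: correlations of the B minus A differences between groups were 0.0039, 0.068 and 0.13. The number of genes with a lower mean under miR-29a-3p than under miR-223-3p, 4 as deposited, was 7 after further quantile normalization and ran from 1 to 8 without 1 sample. Medians of the 30 genes kept their direction with miR-223-3p and between the mimics. Under the trend the dim genes HMOX1 and MAFG had the largest standard errors of the 30 (0.260 and 0.275). Under the constant prior KEAP1 had the largest (0.266), while HMOX1 had 0.258 and MAFG 0.180. With 2 samples a group, leaving out a sample assumes that the lone one varies like the others.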
